A study of Homo sapiens with 6 samples.

Results

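The regions described are close alternative 5′ splice sites, meaning 2 listed introns that share chromosome, strand and 3′ splice site but begin 1 to 100 nt apart. The site that starts the longer intron is called the outer site and the one that starts the shorter intron the inner site. Among 22588 pairs of listed introns that share a 3′ splice site at any distance, 86 were that close, and 48 of them had at least 50 spliced reads over the inner intron on average per library. These 48 pairs in 39 genes were drawn from a list of 241593 introns. The least covered pair kept had a mean of 51.3 spliced reads and the best covered pair left out had 42.0, and the next distance beyond the limit was 104 nt.

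The cells were K562, a human leukaemia line with erythroid features, carrying shRNA sh1 against ZRSR2, shRNA sh2 against ZRSR2, or a control shRNA (Con_sh). Each group had 2 libraries of polyA RNA, labelled Exp1 and Exp2. No clone, selection or time after transduction is given in the labels, and every group carries an shRNA. The spliced counts summed over introns to 82986327 to 101120454 reads per library.

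A 5′ splice site is the junction where an exon ends and an intron begins, and it is first read by base pairing with the U1 RNA in major introns or the U11 RNA in the rare U12-type introns. Where 2 such sites lie close together, the one chosen sets how much sequence stays in the exon. ZRSR2 acts at the other end of the intron, where it takes part in recognising the 3′ splice site of U12-type introns. The comparison asks whether lowering ZRSR2 goes with a different choice between close 5′ sites, and whether the introns they start are removed less.

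ZRSR2 itself had a median of 1.05 and 0.939 CPM over its introns with sh1 (spliced reads scaled to the sum of the library) and 0.972 and 1.24 with sh2, against 2.64 and 2.15 with Con_sh. Erythroid markers were present in all 6 libraries and were uneven, the embryonic globin HBE1 reading 667 and 87.3 CPM with sh1 and 2248 and 359 with sh2, against 153 and 122 with Con_sh. Of 7 markers of other cell types, EPCAM stood at 9.61 to 14.1 CPM, and the other 6 at 0 to 1.03, with ALB and MS4A1 at or near 0. The part of these marker differences in the results was not tested.

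The letters around 15 of the member sites could be read from RefSeq promoter sequences on GRCh38.p14. They are shown because they let the outer and the inner site of a pair be compared letter by letter. Each line gives 6 exon bases and 10 intron bases on the strand of the gene, with the first bases of the intron, GT, in capitals.
MLF2 outer: gcactgGTgaggctcg
MLF2 inner: tgcaggGTctgggagc
LYAR outer: tgagagGTgaggggtg
LYAR inner: cagagaGTgagtaggg
KDM3A outer: ggcgggGTaagagcgc
KDM3A inner: agaaagGTgaaagcgc
ZNF566 outer: cctgagGTgagaaacc
ZNF566 inner: gtggagGTgagattga
TANK outer: tgaactGTgtgagtaa
TANK inner: aactgtGTgagtaaga
NR2F2 outer: gggaagGTatcggcct
BRD9 outer: acgaggGTgaggcggc
MUTYH outer: cgggagGTaatctttc
ODF2L outer: gggggcGTaagtacgc
MBNL3 outer: gatcagGTaagctggg

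These sites lie at chr12:6752929-6752944 (MLF2 outer, minus strand), chr4:4290026-4290041 (LYAR outer, minus), chr2:86441439-86441454 (KDM3A outer, plus), chr19:36489464-36489479 (ZNF566 outer, minus) and chr2:161160479-161160494 (TANK outer, plus). The inner sites lie at chr12:6752872-6752887 (MLF2), chr4:4289976-4289991 (LYAR), chr2:86441483-86441498 (KDM3A), chr19:36489403-36489418 (ZNF566) and chr2:161160481-161160496 (TANK). The other outer sites shown lie at chr15:96332542-96332557 (NR2F2, plus), chr5:892596-892611 (BRD9, minus), chr1:45339966-45339981 (MUTYH, minus), chr1:86396023-86396038 (ODF2L, minus) and chrX:132413573-132413588 (MBNL3, minus). Against the 9 letters CAGGTAAGT, read on the strand of the gene with the splice junction after the third letter, the member sites matched at 3 to 8 letters, the most in MBNL3, with a median of 6. Over all 2910 listed 5′ sites that fall in a RefSeq promoter window the median was also 6, and 0.412% matched at all 9 letters. The outer site matched better in MLF2 (6 letters, against 4 at the inner site), LYAR (6 against 5) and KDM3A (6 against 5). In ZNF566 both sites matched at 6, and in TANK, where the sites are 2 nt apart, the outer site matched at 3 and the inner site at 5. A match to these letters is a description and does not show that a site is used.

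The first 2 intron bases were GT in 97.7% of the 2910 sites as listed, and in 0.0688% or 0.0% after moving every position by 1 nt in either direction. The listed positions were therefore read as GRCh38 positions.

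The distances fell into 2 kinds. In 12 pairs the sites were 1 or 2 nt apart, and in the other 36 they were 12 nt or more apart with a median of 70.5 nt. No pair lay at 3 to 11 nt. The distance was a multiple of 3, which would keep a reading frame, in 8 pairs. MXI1, whose product is a repressor that competes with MYC for its partner MAX, supplied 10 of the 48 pairs from 10 sites joined to a single 3′ splice site (chr10:110226835-110228188 for the longest member intron). Pairs of MXI1 therefore share reads and are not independent.

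Reads were assigned to sites by subtraction, because the deposited spliced count of an intron also holds reads whose gap spans a longer one. Inner reads are the spliced count of the inner intron less that of the outer one. Outer reads are the spliced count of the outer intron less that of the most used listed intron that contains it and begins elsewhere. Reads that leave either site for a more distant 3′ splice site stay in these numbers, and strand was not used in the counts.

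**Figure D1:**
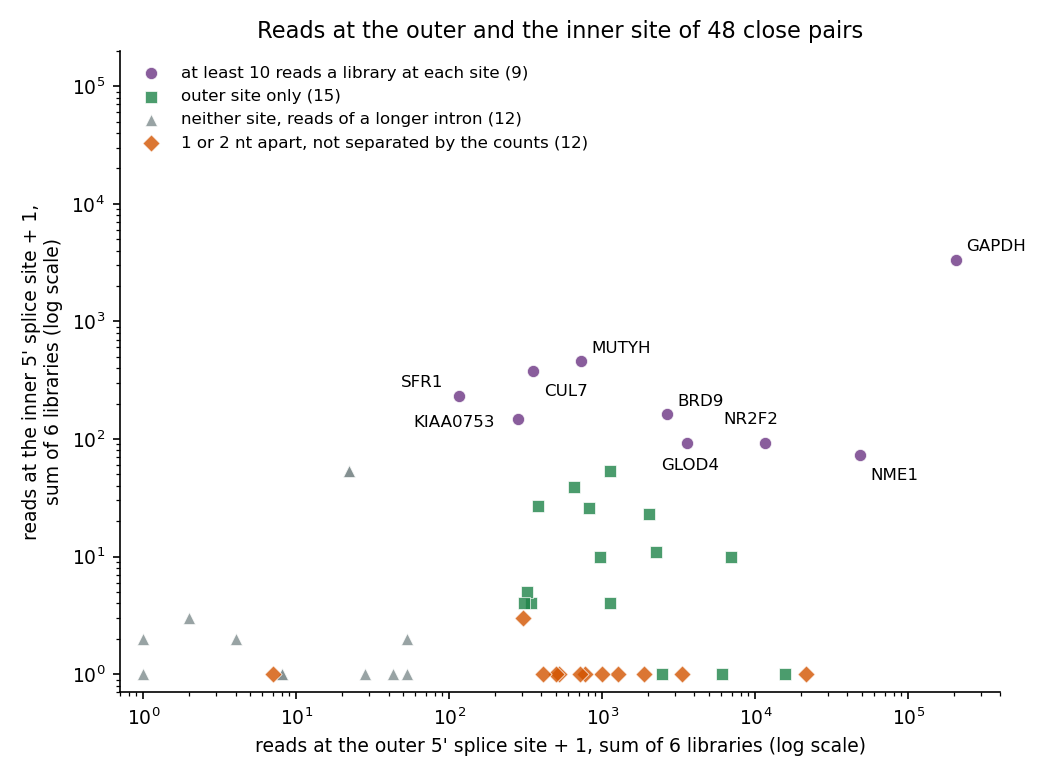
Reads at the inner site against reads at the outer site, each plus 1 and summed over 6 libraries, on log axes, with 1 point for each of the 48 pairs. The 9 named pairs had at least 10 reads a library on average at each site, and most other pairs lie along the lower edge, with few or no inner reads.

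For the 12 pairs 1 or 2 nt apart the counts could not tell the sites apart. The 2 introns had identical spliced counts in all 6 libraries in 11 of these pairs, and SHF differed by 2 reads of 437. The same happened where neither intron contains the other. Of 22 listed intron pairs shifted by 1 or 2 nt at both ends, 17 had identical spliced counts in all 6 libraries. The pairs without separation included CCNB1IP1, APOOL, ARHGAP5 and VPS35L at 1 nt and FBXL19, TANK, DNA2, GOLGA4, AKAP9 and SHF at 2 nt. CCNB1IP1 had 6628 spliced reads over the inner intron (chr14:20316561-20317793), of which 6622 belonged to a longer listed intron, and the listed intron of AKAP9 was 3 nt long (chr7:91973708-91973710). No use of either site is read from these 12 pairs below, but their introns are included in the account of retention.

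In 15 further pairs the outer site was used and the inner site had fewer than 10 reads a library on average. The inner site took a median of 0.931% of the spliced reads in these pairs, and 6.47% at most, in KDM3A. In MLF2 (chr12:6752363-6752938), 0 of 15805 spliced reads used the inner site 57 nt downstream, which allows a share of up to 0.019%. SELENOS (chr15:101276676-101277341), a selenoprotein of the endoplasmic reticulum, had 0 of 6039, which allows up to 0.0497%. EAPP (chr14:34516587-34524696), which binds E2F factors, had 0 of 2464, which allows up to 0.122%. These limits cover counting error only, since reads from amplified libraries are not independent molecules.

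The other 12 of these pairs had 3 to 52 inner reads in all. TEX264, a receptor for degradation of the endoplasmic reticulum, had 52 inner and 1123 outer reads (chr3:51672302-51674270), and ODF2L had 38 and 650. KDM3A, a histone H3 lysine demethylase, had 26 and 376 (chr2:86441445-86442017), HOOK2, a dynein adaptor, had 25 and 822, and ZNF581 had 22 and 2023. The remaining pairs lay in GBGT1, LYAR, ZNF525, EEF1A1-AS1, PHF8, EEF1AKMT1 and ZNF566, with 3 to 10 inner reads each. These 15 pairs fell below the main minimum of 10 reads a library. With a minimum of 3 reads at each site 16 close pairs were tested, 7 of them added, and edgeR called 0 of the 16 and 0 of all 8848 pairs in every contrast. Of the 7 added pairs, 2 are pairs of MXI1 with identical outer and inner reads, so those reads count more than once among the 16.

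Among the 7 added pairs, ODF2L (outer site shown above) is named after its values were seen. It had 5 and 2 inner reads with sh1 and 3 and 2 with sh2, against 18 and 8 with Con_sh. Its outer share was 96.0% and 98.3% with sh1 and 97.9% and 98.1% with sh2, against 78.8% and 93.2% with Con_sh, so the knockdown and control libraries did not overlap. The log2 difference in outer over inner reads was 2.54 over both shRNAs (SE 0.688, 95% interval 0.90 to 4.17), with an edgeR adjusted p of 0.805. With this minimum the libraries did not overlap in 1 of the 16 close pairs, against 13.9% of the 8848.

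In 12 further pairs neither site reached 10 reads a library on average. These are the 10 pairs of MXI1, 1 pair in the autophagy gene UVRAG (chr11:75980039-75983386) and 1 in the splicing regulator MBNL3 (chrX:132406393-132413582). Their reads belonged to a longer listed intron to the same 3′ splice site. It held 673 of the 700 spliced reads over the inner intron in UVRAG and 287 of 329 in MBNL3. Over the inner introns of MXI1 lay 494 to 578 spliced reads, and 490 to 575 of them belonged to a longer intron. That longer intron differed between the MXI1 pairs, and in some pairs it was itself an intron of another member pair. The MXI1 pair with the most reads of its own had 52 at the inner and 21 at the outer site over 6 libraries.

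Both sites were used in 9 of the 36 pairs that the counts separate (25%), at 10 or more reads a library on average. Among 11583 pairs over 100 nt apart with the same read minimum, 6926 (59.8%) had both sites used, given here as a description. The 9 pairs lay in 9 genes: GAPDH, NME1, GLOD4, NR2F2, BRD9, MUTYH, SFR1, CUL7 and KIAA0753. The outer site took most reads in 7 of them, and the inner site took 51.8% of all spliced reads in CUL7 and 66.9% in SFR1.

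GAPDH, the glycolytic dehydrogenase, had its sites 14 nt apart (outer intron chr12:6536594-6536683, inner intron chr12:6536608-6536683). The inner site had 436 and 608 reads with sh1 and 428 and 608 with sh2, against 474 and 800 with Con_sh. The outer site had 32471 and 43912 reads with sh1 and 23813 and 35198 with sh2, against 24369 and 45571 with Con_sh. The share of the outer site was thus 98.7% ± 0.0288 with sh1 and 98.3% ± 0.0478 with sh2, against 98.2% ± 0.129 with Con_sh (SD, n = 2 each). Both sh1 libraries lay above both control libraries, and the sh2 and control ranges overlapped.

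NME1, a nucleoside diphosphate kinase, had sites 62 nt apart (outer intron chr17:51153663-51154224). Inner reads were 3 and 11 with sh1 and 16 and 8 with sh2, against 23 and 11 with Con_sh, beside 5792 to 9920 outer reads in the 6 libraries. Its outer share exceeded 99.7% in every library. GLOD4, a protein with a glyoxalase-like domain, had sites 73 nt apart (outer intron chr17:776989-778694), with 12 and 15 inner reads with sh1 and 15 and 17 with sh2, against 16 and 16 with Con_sh. Its outer share was 97.8% ± 0.161 with sh1 and 96.6% ± 0.249 with sh2, against 97.7% ± 0.664 with Con_sh (SD, n = 2 each). Both sh2 libraries lay below both control libraries, and the sh1 libraries lay within the control range.

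Among the nuclear proteins, NR2F2, an orphan nuclear receptor, had sites 74 nt apart (outer intron chr15:96332548-96334075). Inner reads were 8 and 14 with sh1 and 16 and 20 with sh2, against 8 and 25 with Con_sh, and outer reads ranged from 1344 to 2441. A longer intron to the same 3′ splice site held a further 1833 reads over the 6 libraries. BRD9, the bromodomain subunit of a chromatin remodelling complex, had sites 97 nt apart (outer intron chr5:891855-892605). Its inner reads were 12 and 41 with sh1 and 12 and 33 with sh2, against 20 and 44 with Con_sh.

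In these 2 genes the libraries separated by experiment. The outer share of BRD9 was 95.8% to 97.0% in the 3 Exp1 libraries and 91.9% to 92.6% in the 3 Exp2 libraries. That of NR2F2 was 99.3% to 99.7% in Exp1 and 98.2% to 99.1% in Exp2. The experiments did not overlap in 2 of the 9 pairs, and they did not overlap in 13.5% of the 6935 pairs tested at any distance.

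MUTYH, the glycosylase that removes adenine paired with oxidised guanine, had sites 77 nt apart (outer intron chr1:45334512-45339975, inner intron chr1:45334512-45339898). It had 91 and 153 outer reads with sh1 and 109 and 124 with sh2, against 129 and 116 with Con_sh. Its inner reads were 43 and 63 with sh1 and 58 and 79 with sh2, against 143 and 71 with Con_sh. The outer share was 67.9% and 70.8% with sh1 and 65.3% and 61.1% with sh2, against 47.4% and 62.0% with Con_sh. One control library stood well below the other 5, and the sh2 and control ranges overlapped.

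SFR1, a partner of SWI5 in homologous recombination, had sites 42 nt apart (outer intron chr10:104122155-104122964, inner intron chr10:104122197-104122964). It had 10 and 15 outer reads with sh1 and 36 and 19 with sh2, against 17 and 18 with Con_sh. Its inner reads were 41 and 32 with sh1 and 37 and 18 with sh2, against 66 and 38 with Con_sh. The outer share was 19.6% and 31.9% with sh1 and 49.3% and 51.4% with sh2, against 20.5% and 32.1% with Con_sh. Both sh2 libraries stood above the other 4, and the sh1 values nearly matched the control values of the same experiment.

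CUL7, the scaffold of a ubiquitin ligase, had sites 89 nt apart (outer intron chr6:43052797-43053710) and split its reads about evenly. The outer share was 51.6% and 43.9% with sh1 and 42.1% and 50.9% with sh2, against 50.4% and 52.3% with Con_sh. KIAA0753, a protein of centrosomes and cilia, had sites 98 nt apart (outer intron chr17:6623098-6623606). Its outer share was 77.6% and 53.4% with sh1 and 69.2% and 67.9% with sh2, against 62.1% and 68.5% with Con_sh. In both genes the groups overlapped.

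**Figure D2:**
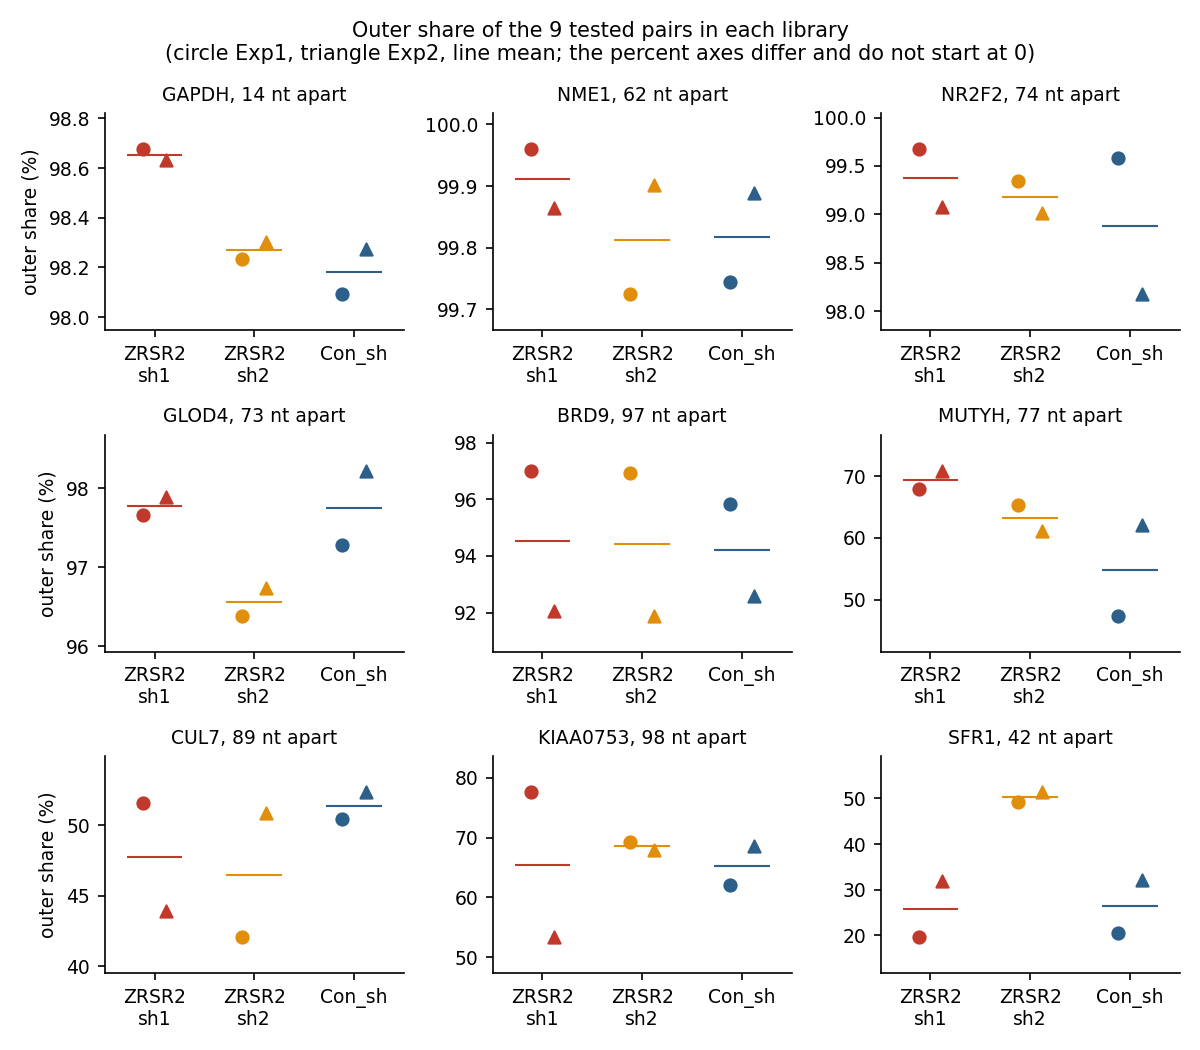
Share of spliced reads from the outer 5′ splice site (percent) in each library of the 9 pairs with both sites used, in ZRSR2_sh1, ZRSR2_sh2 and Con_sh. Circles are Exp1, triangles Exp2 and lines the mean of 2 libraries, and BRD9 separates by experiment while SFR1 shows both sh2 libraries near 50%.

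Knockdown of ZRSR2 changed the choice between the sites in 0 of the 9 pairs by edgeR's quasi-likelihood test at an adjusted p of 0.05, whichever contrast was taken. The background was also empty, with 0.0% of 6935 pairs called over both shRNAs, with sh1, with sh2 and between sh1 and sh2. Over both shRNAs 442 of the 6935 pairs and 0 of the 9 had an unadjusted p under 0.05. DESeq2 called 22 of the 6935 over both shRNAs, 22 with sh1, 20 with sh2 and 3 between the shRNAs, and 0 of the 9 in each. The 4 knockdown libraries and the 2 control libraries did not overlap in outer share in 0 of the 9 pairs, against 14.2% of the 6935.

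The interval of the difference was narrow in some of the 9 pairs and wide in others. A positive log2 difference here means more outer reads relative to inner reads in the knockdown. GAPDH had 0.25 over both shRNAs (SE 0.126, 95% interval -0.05 to 0.55), with an edgeR adjusted p of 0.783, and its outer share was higher than in both controls in 3 of 4 knockdown libraries. MUTYH had 0.72 (SE 0.308, interval -0.01 to 1.46), with an edgeR adjusted p of 0.764. It read 0.27 without control replicate 1 and 1.13 without control replicate 2. SFR1 had 0.76 (SE 0.457, interval -0.33 to 1.86), with an edgeR adjusted p of 0.839, and 0.31 and 1.19 without the same libraries. CUL7 had -0.25 (SE 0.305, interval -0.98 to 0.48) and GLOD4 -0.34 (SE 0.288, interval -1.03 to 0.34). GLOD4 read -0.64 without control replicate 1 and -0.02 without control replicate 2, and CUL7 read -0.12 to -0.37 with 1 library left out.

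In the other 4 pairs the interval ran from -0.87 to 1.88 in NME1, from -0.97 to 2.12 in NR2F2, from -1.21 to 1.39 in BRD9 and from -1.14 to 1.26 in KIAA0753, on the log2 scale. A shift of the site ratio by 2-fold, which is 1 on this scale, lay outside the interval over both shRNAs in GAPDH and CUL7 in both directions. In the other 7 pairs such a shift lay inside on one side or both. With a single shRNA the interval of CUL7 also held a 2-fold fall, at -1.05 to 0.63 with sh1 and -1.13 to 0.55 with sh2.

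Taken one shRNA at a time, the unadjusted p was under 0.05 for 2 of the 9 pairs with sh1 (391 of 6935 overall), 1 with sh2 (480) and 2 between the shRNAs (485). With sh1 these were GAPDH, at a log2 difference of 0.44 (SE 0.146), and MUTYH, at 0.93 (SE 0.36), both with an edgeR adjusted p of 0.836. With sh2 it was SFR1, at 1.54 (SE 0.518) and an edgeR adjusted p of 0.687. Between sh1 and sh2 they were GAPDH, at 0.37 (SE 0.146), and SFR1, at -1.55 (SE 0.539), both with an edgeR adjusted p of 0.702. With the other shRNA GAPDH read 0.07 (SE 0.146) in sh2, MUTYH 0.52 (SE 0.355) in sh2 and SFR1 -0.01 (SE 0.417) in sh1. None of these differences survived adjustment over all tested pairs, and the contrasts with control share the same 2 control libraries.

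**Figure D3:**
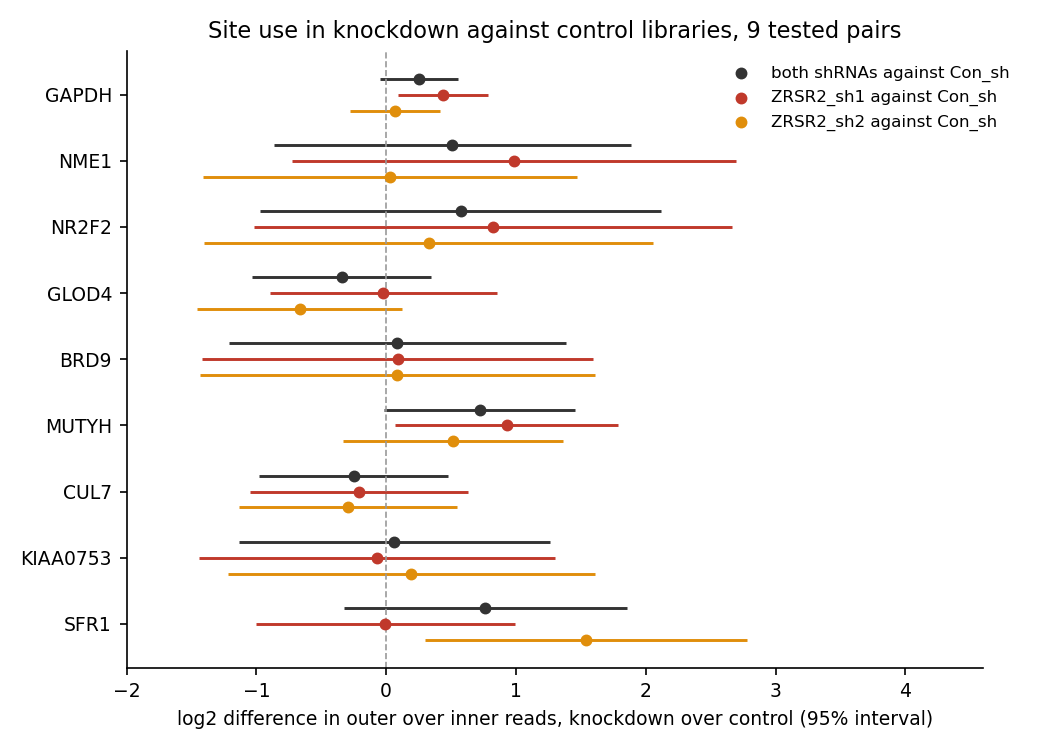
Log2 difference in outer over inner reads, knockdown over control, with 95% intervals for the 9 pairs, for both shRNAs and for ZRSR2_sh1 and ZRSR2_sh2 against Con_sh. Every interval over both shRNAs includes 0, and that of GAPDH (-0.05 to 0.55) is the narrowest.

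As 1 value per library, the median outer share over the 9 pairs was 97.0% and 92.1% with sh1 and 96.4% and 91.9% with sh2, against 95.8% and 92.6% with Con_sh. The knockdown mean was 94.3% ± 2.74 (SD, n = 4) and the control mean 94.2% ± 2.31 (SD, n = 2). The difference of 0.124 percentage points had p = 0.933 in a two-sided exact permutation test, in which 0.0667 is the smallest p the design allows. The median was the BRD9 share in 5 of the 6 libraries and the GLOD4 share in 1, and BRD9 separated by experiment. This test therefore says nothing of the other pairs.

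Reads that run unspliced across the outer site gave a second view of the 9 pairs. A transcript that begins upstream and is spliced at the inner site has to contain the bases between the sites. In SFR1 only 2 reads crossed the outer site in all 6 libraries, beside 232 reads spliced from the inner site. MUTYH had 22 such reads beside 457, BRD9 25 beside 162, and KIAA0753 31 beside 148. The order was the other way in CUL7 (649 beside 379), GLOD4 (464 beside 91) and NR2F2 (499 beside 91). NME1 had 42 beside 72, and GAPDH, with 14 nt between its sites, had 586 beside 3354. RNA spliced at neither site also crosses the outer site, so these reads need not all come from transcripts spliced at the inner site. Reads across the inner site, which such RNA also crosses, numbered 415 in NR2F2, 484 in GAPDH, 238 in GLOD4 and 116 in CUL7. They numbered 153 in MUTYH, 61 in BRD9, 52 in SFR1, 29 in NME1 and 22 in KIAA0753. How the reads across the outer site divide between these sources was not tested.

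RefSeq places the start of the gene itself between the sites in 7 of the 48 pairs. These are MLF2, where the start lies 22 nt after the outer site, NR2F2 (17 nt), LYAR (14 nt), BRD9 (55 nt), MUTYH (5 nt), KDM3A (16 nt) and ZNF566 (38 nt). NR2F2, BRD9 and MUTYH are among the 9 pairs with both sites used. In such a pair the outer site belongs to transcripts that begin further upstream, so the counts mix the choice of start with the choice of 5′ site, and the 2 cannot be told apart here. SFR1 and KIAA0753 had no annotated start between the sites in this table, which holds 1 start for each gene.

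**Figure D4:**
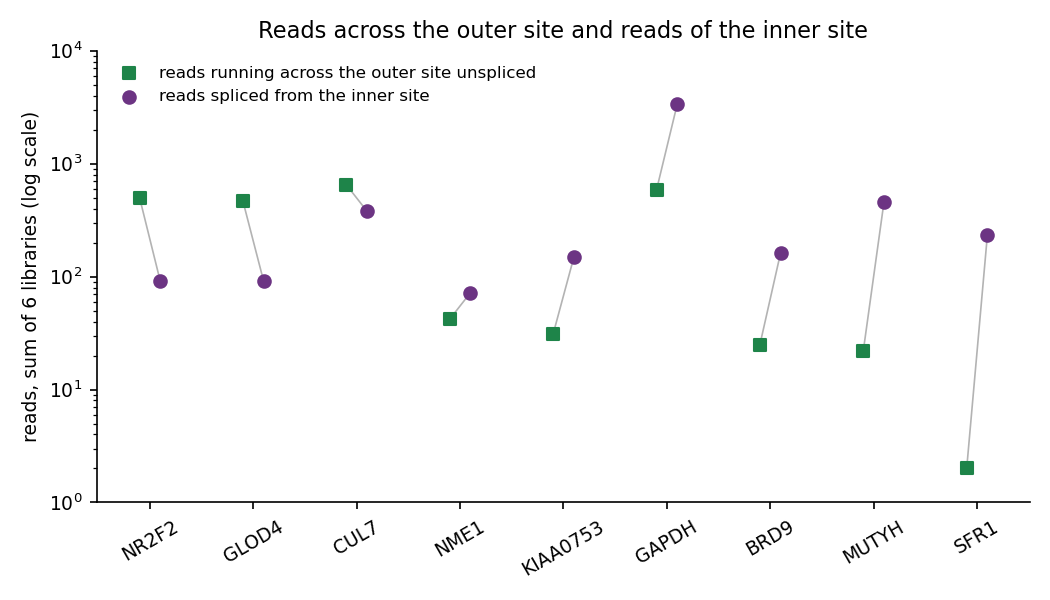
Reads running unspliced across the outer site (squares) and reads spliced from the inner site (circles), each summed over 6 libraries on a log axis, for the 9 pairs. The pairs are ordered by the ratio of these counts, from NR2F2 (499 beside 91) to SFR1 (2 beside 232).

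Retention of the shorter intron of each pair measures whether the intron is removed. Pairs were chosen on its spliced reads, summed over all 6 libraries without regard to group, and those reads enter this measure, while the boundary reads were not used. Retention is the share of reads that cross the ends of an intron rather than skip it, as a percent of boundary reads plus 2 times the spliced reads. The 48 pairs hold 45 different inner introns, all with enough reads to be tested. Control means had a median of 4.22% and were 0 in GOLGA4, AKAP9 and UVRAG. Introns with a high percent in the control included those of KDM3A (29.7%), MXI1 (26.3% to 27.6%) and SFR1 (17.8%). Their boundary reads lay mostly at the 3′ end. With Con_sh, KDM3A had 7 and 7 reads across the 5′ end and 37 and 33 across the 3′ end. The longest MXI1 inner intron had 0 and 0 against 48 and 54, and SFR1 had 11 and 7 against 27 and 16. A high percent in these introns therefore does not show that the whole intron was kept.

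Knockdown raised the retention of 1 of the 45 inner introns by edgeR's quasi-likelihood test and lowered that of 0. Among all 134078 tested introns, calls of more retention made up 0.33% and calls of less retention 0.0209%. With sh1 alone the count was 1 and 0 of 45, against 0.292% and 0.0104% of all introns, and with sh2 alone 1 and 0, against 0.266% and 0.0201%. Between sh1 and sh2 it was 0 and 0, against 0.0246% more and 0.0097% less retained with sh1. An unadjusted p under 0.05 was found for the same 1 of 45, and no other tool was run on retention. The median log2 difference of the 45 introns was 0.10, against 0.08 over all tested introns. It was 0.03 with sh1, against 0.02 over all, and 0.04 with sh2, against 0.16 over all. These 45 include 2 introns with no boundary read (GOLGA4 and AKAP9) and 7 of MXI1 that share reads. Over the other 36 the median was 0.18, a selection made after the values were seen. All 4 knockdown libraries lay above both controls in 2 introns, those of DNA2 and SFR1 (7.28% of all introns tested), and below both in 1, that of ZNF581 (4.11% of all).

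The intron that rose was that of DNA2, a nuclease and helicase that trims DNA flaps and broken ends (inner intron chr10:68415108-68416706, outer intron chr10:68415108-68416708). Its retention was 61.9% and 30.9% with sh1 and 48.4% and 24.96% with sh2, against 8.48% and 4.64% with Con_sh. All 4 knockdown libraries lay above both controls, and within each group the Exp1 library was higher. The group means were 46.4% ± 21.9 with sh1 and 36.7% ± 16.6 with sh2, against 6.56% ± 2.71 with Con_sh (SD, n = 2 each).

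Reads crossed both ends of this intron more often in the knockdown. At the inner 5′ end 153 and 87 reads crossed with sh1 and 144 and 72 with sh2, against 26 and 28 with Con_sh. At the 3′ end 127 and 84 crossed with sh1 and 137 and 81 with sh2, against 17 and 9 with Con_sh. Spliced reads over the intron numbered 86 and 191 with sh1 and 150 and 230 with sh2, against 232 and 380 with Con_sh. The counts at the 2 ends were alike within every knockdown library.

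The log2 difference of boundary against spliced reads was 3.35 over both shRNAs (SE 0.495), with an edgeR adjusted p of 1.79e-08. With sh1 it was 3.65 (SE 0.57, edgeR adjusted p = 2.04e-07) and with sh2 3.05 (SE 0.562, edgeR adjusted p = 5.13e-05). The difference between sh1 and sh2 was 0.59 (interval -0.48 to 1.67), with an edgeR adjusted p of 1. With the smaller of the 2 boundary counts doubled in place of their sum, the value over both shRNAs was 3.94 and the edgeR adjusted p 0.154, so the call was lost. The same setting gave 4.23 with sh1 (edgeR adjusted p = 0.348) and 3.65 with sh2 (0.939). The call for sh2 was also lost without sh2 replicate 1, at 2.30 (edgeR adjusted p = 0.407), or without control replicate 2, at 2.59 (0.104).

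Of 18 other tested introns of the gene that do not overlap the pair, 0 were called by edgeR, and the lowest adjusted p was 1. Their median retention was 1.62% ± 0.221 with sh1 and 1.33% ± 0.237 with sh2, against 1.42% ± 0.275 with Con_sh (SD, n = 2 each). Spliced reads over the intron of the pair came to 56.0% ± 21.6 of the median of those 18 introns with sh1 and 73.1% ± 12.2 with sh2, against 106% ± 10.6 with Con_sh. Those introns themselves had 2.61 ± 0.0912 CPM of spliced reads with sh1 and 2.95 ± 0.365 with sh2, against 3.01 ± 0.409 with Con_sh. These ratios were computed after the call was seen. For the percent of the median, knockdown against control, a two-sided exact permutation test gave p = 0.0667, the smallest the design allows. The test uses the same spliced reads that entered the retention call, so it adds no separate evidence. Because the sites of DNA2 are 2 nt apart, the rise is in the intron as a whole and says nothing about which 5′ site was used.

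**Figure D5:**
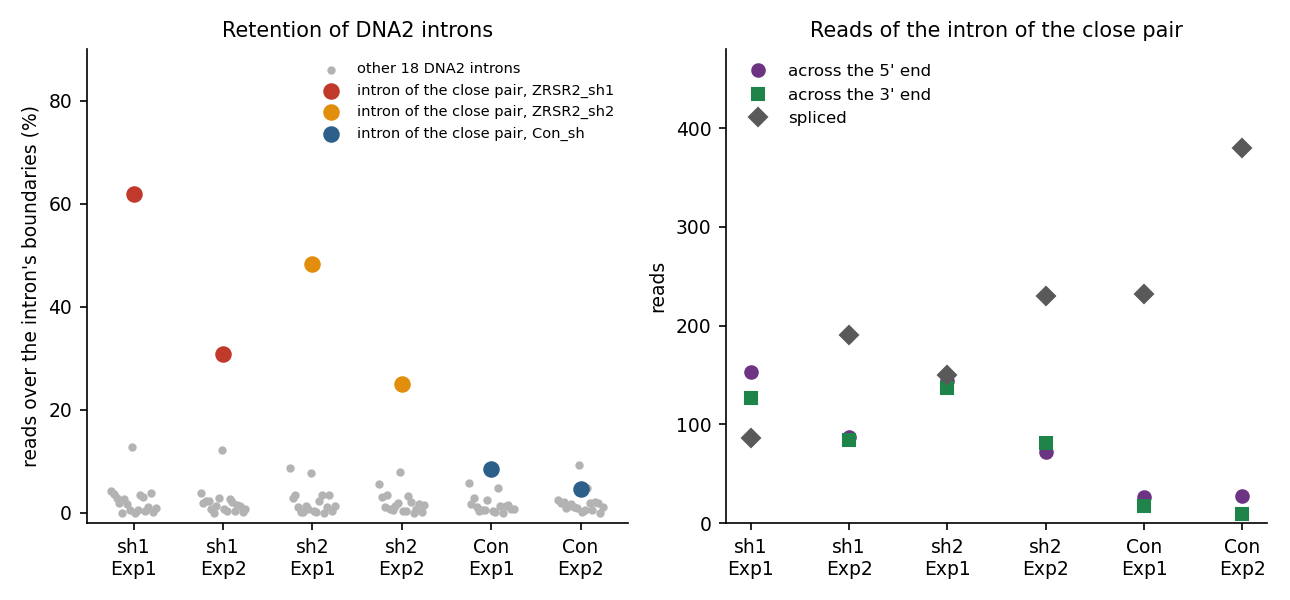
Left, retention in percent of the DNA2 intron of the close pair (large points) and of 18 other DNA2 introns (grey) in each library. Right, reads across either end of the intron of the pair and reads spliced over it, with 24.96% to 61.9% retention in the 4 knockdown libraries and 4.64% to 8.48% in the controls.

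No member gene was in the 5 gene lists chosen for context, which hold 128 genes. The list of 46 genes for 5′ splice site recognition also held genes of the U11/U12 particle, with ZRSR2 itself among them. In this list 3 genes held an intron more retained over both shRNAs by edgeR and 0 a less retained one. That is 4 of 418 introns (0.957%), against 0.33% of all introns tested. The 3 genes were SNRPE, a core protein of the spliceosomal particles, LSM5, a protein of the U6 particle, and RNPC3, a protein of the U11/U12 particle. The SNRPE intron at chr1:203861714-203862195 was retained at 25.03% and 16.2% with sh1 and 23.7% and 16.4% with sh2, against 3.78% and 6.06% with Con_sh. That of LSM5 at chr7:32487758-32489233 stood at 7.27% and 3.75% with sh1 and 6.53% and 3.55% with sh2, against 3.13% and 1.37% with Con_sh. Of 33 genes listed from memory for a U12-type intron, 29 held a more retained intron (40 of 506 introns, 7.91%), a list made with earlier results of these data known and so not independent evidence. DNA2 is not on that list. The counts were 3 of 22 tested genes for SR and hnRNP proteins (6 of 188 introns, 3.19%) and 1 of 14 for decay factors (UPF1, 2 of 235 introns, 0.851%). In K562 and blood genes 0 of 12 held a more retained intron (0 of 99 introns), and BCR held 1 less retained intron, against 0.0209% of all introns tested.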

How the data were processed

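PolyA-selected RNA was made into libraries with a NEBNext Ultra kit, per the labels' protocols. The authors deposited 1 table per library, which per the file headers holds raw counts of reads at each intron boundary (A1, A2) and of spliced reads (Exon), the covered fraction of each intron, and a retention percent (MSI) that equals 100 times boundary reads over boundary plus 2 times spliced reads. Per the submitters' processing notes the build was hg19, yet GT stood at 97.7% of listed 5′ sites when read on GRCh38, which was therefore used. The aligner, the read counter and the origin of the intron list are not given in the sources used here. Gene names and sequences come from RefSeq on GRCh38.p14, and a gene's bounds place the intron, not its exons.

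Each library entered with its outer and its inner count and had its own term in the model. The effect of the group on outer against inner reads was tested with edgeR 4.0.16 (R 4.3.3) by its quasi-likelihood test over the 6935 pairs, at any distance, with at least 10 reads at each site and 50 spliced reads over the inner intron. Retention was tested in the same way over 134078 introns with at least 20 reads. Benjamini-Hochberg adjustment at 0.05 ran over each whole table, and all 6 libraries shared 1 estimate of the spread. DESeq2 1.42.0 was the alternative for site use. The scripts ran in Python 3.11.15 with scipy 1.17.1, and the tests were checked on simulated data. Whether the libraries of 1 group are separate cultures is not stated, so p-values measure the spread between these libraries, which may be technical.

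The rule for named pairs took all called pairs, the 8 tested pairs with the most reads, tested pairs with a control share near 50%, and pairs with a changed inner intron. SFR1, the ninth tested pair, was added after its values were seen. The members, gene lists and tests were chosen with earlier results of these data known. Alternatives were other read minimums, nothing subtracted from the outer count, another scaling, DESeq2, the smaller boundary count doubled, the experiment as a block, and each library left out in turn. Values of some single members are not reported here.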

Additional observations from a re-analysis of the deposited data

How the results depend on the processing

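The count of pairs with changed site use was 0 of those tested under every alternative run, in all 4 contrasts, and from 0 to 0 with each library left out in turn. The median outer share differed by 0.124 percentage points between knockdown and control, by 10.0445 with at least 30 reads at each site, where GAPDH, MUTYH and CUL7 alone remained, and from -1.51 to 1.75 with each library left out. The count of more retained inner introns was 1, from 1 to 1 with each library left out, and 0 with the smaller boundary count doubled. For DNA2 the edgeR adjusted p over both shRNAs ranged from 1.09e-16 to 0.154 over its alternatives.

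With each library left out, log2 differences over both shRNAs changed sign in NME1 (-0.18 to 1.06), NR2F2 (-0.71 to 1.44), BRD9 (-0.42 to 0.53) and KIAA0753 (-0.27 to 0.52), as did GAPDH with sh2 (-0.0051 to 0.14) and SFR1 with sh1 (-0.50 to 0.44). In MUTYH, SFR1, GLOD4 and CUL7 the value kept its sign and moved by over 1.5 times, reaching 0.48 to 1.33 with sh1 and 0.07 to 0.92 with sh2 in MUTYH. The cause was not tested. Where the group left with 1 library was compared, that library was assumed to vary like the others.

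The experiment number as a block changed no call. The count was 0 for site use and 1 for retention, and DNA2 read 3.36 under the block (edgeR adjusted p = 7.62e-14). Deviations of same-numbered libraries correlated at 0.0384 to 0.203 in site use and 0.051 to 0.106 in retention. Counting error lowers such correlations, so they do not show how far libraries of the same number are paired.

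Over both shRNAs the intervals of 7 of the 9 pairs include a 2-fold shift in at least 1 direction. With 1 or 2 nt between sites the counts give no view of site choice at all.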
